A study of Mus musculus with 36 samples.

Results

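The genes described here encode plasma membrane amino acid transporters and make up 8 of the 56748 genes in the count table. They are Slc7a5, Slc3a2, Slc7a6, Slc7a11, Slc7a1, Slc1a5, Slc38a1 and Slc38a2. They were picked by gene name as carriers known in T cells, with earlier results of these data known, and all 8 were found.

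RNA-seq was carried out on CD4+ T cells from the spleen of 2 mutant mouse lines on a mixed 129/Sv and C57BL/6 background, from male mice 6 to 12 weeks old. In the HP1a line a floxed Cbx5 allele, which encodes HP1α, had been excised with CMV-cre in the germ line, so that every tissue of the KO mice lacks it. In the HP1g line a floxed Cbx3 allele, which encodes HP1γ, was excised by Cd4-cre, so that the deletion is limited to T cells, and the HP1g WT controls carry the floxed allele without Cre. Each genotype (KO and WT) was studied in 3 conditions, which gave 12 groups of 3 libraries. Naive cells were CD4+ T cells purified with magnetic beads and not transferred. Tconv are the same kind of cells after transfer into lethally irradiated hosts together with an equal mix of C57BL/6 and B6D2F1 bone marrow, sorted as Vβ6+ cells 3 weeks after grafting. Tconv with Treg came from hosts that had also received wild-type regulatory T cells (Treg) expanded ex vivo from Foxp3-Thy1.1 mice. The third library of HP1g KO Tconv with Treg was not used, because the authors had set it aside for poor quality. This leaves 35 libraries, with 2 in that group. The labels number the replicates without saying whether they came from separate animals, so the p-values measure the spread between these libraries, which may in part be technical.

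A dividing lymphocyte needs far more amino acids than a resting one, and most of them enter through a small number of carriers. Slc3a2 encodes the heavy chain CD98, which carries no amino acid itself but brings its partner light chains to the cell surface. The light chain encoded by Slc7a5 is LAT1, which imports leucine and other large neutral amino acids, that of Slc7a6 is y+LAT2, which exchanges cationic for neutral amino acids, and that of Slc7a11 is xCT, which imports cystine for glutathione synthesis. Slc7a1 encodes CAT1, a carrier of arginine and lysine that needs no heavy chain. Slc1a5 encodes ASCT2, a sodium-dependent exchanger of glutamine and other neutral amino acids, and Slc38a1 and Slc38a2 encode SNAT1 and SNAT2, which take up glutamine and alanine with sodium. In T cells LAT1 and ASCT2 are known for feeding leucine and glutamine to mTORC1 after activation, and several of these genes respond to MYC or to the amino acid response factor ATF4.

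In the GRCm39 build used for the counts, the heavy chain and light chain genes lie apart. The annotation places Slc3a2 (ENSMUSG00000010095) at chr19:8684245-8701108 on the minus strand, Slc7a5 (ENSMUSG00000040010) at chr8:122607884-122634433 on the minus strand, Slc7a6 (ENSMUSG00000031904) at chr8:106895139-106925346 on the plus strand and Slc7a11 (ENSMUSG00000027737) at chr3:49846975-50398070 on the minus strand. The other genes lie as follows: Slc7a1 (ENSMUSG00000041313) at chr5:148264220-148336848 on the minus strand, Slc1a5 (ENSMUSG00000001918) at chr7:16515265-16532731 on the plus strand, Slc38a1 (ENSMUSG00000023169) at chr15:96469298-96541851 on the minus strand and Slc38a2 (ENSMUSG00000022462) at chr15:96585266-96597894 on the minus strand, so that both SNAT genes lie on chromosome 15. All are protein-coding. Slc3a2 shares 743 of its 4666 exon bases (15.9%) with the non-coding gene Snhg1 on the opposite strand. The library kit does not mark strand, so reads from that stretch cannot be told apart. Slc38a1 shares 6.53% and 6.34% of its exon bases with Gm56740 and Gm56719, Slc38a2 2.11% with Gm62499 and Slc7a1 0.9% with Gm57292. The remaining members shared no exon base with another gene.

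Promoter letters were available from RefSeq (GRCm38.p6, another build than that of the counts) as 7 windows of 300 bases for 5 of the 8 genes. The windows were searched on both strands for the C/EBP-ATF element of amino acid response genes (TGATGNAAN), for the E-box bound by MYC (CACGTG) and for the antioxidant response element bound by NRF2 (TGANNNNGC). The first stood in 3.95% of all 32851 windows and in 1 of the 7, that of Slc7a11, with matches 66 to 58 bases before the start on the strand of the gene and 48 to 40 bases before it on the opposite strand. The second stood in 7.15% of all windows and in none of the 7. The third stood in 41.3% of all windows and in 5 of the 7, and some of its matches overlap those of the first. The windows of Slc7a6 overlap and share the same match to the third, which is therefore counted more than once among the 5. A match is a string of letters and not a binding site. The 250 bases before the start are shown for Slc7a11, the one with the amino acid response letters, at chr3:50443614-50443863, for Slc3a2, the heavy chain gene, which had the largest rise, at chr19:8713898-8714147, and for Slc38a2, a gene known to answer amino acid lack, at chr15:96699729-96699978. All are on the minus strand and written 5′ to 3′, and capitals mark the C/EBP-ATF element on either strand.
Slc7a11 promoter: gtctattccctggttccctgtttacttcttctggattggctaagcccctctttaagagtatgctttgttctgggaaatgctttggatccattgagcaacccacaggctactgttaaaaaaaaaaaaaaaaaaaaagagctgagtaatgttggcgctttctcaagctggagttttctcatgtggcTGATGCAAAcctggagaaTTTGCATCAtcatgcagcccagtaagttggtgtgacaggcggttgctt
Slc3a2 promoter: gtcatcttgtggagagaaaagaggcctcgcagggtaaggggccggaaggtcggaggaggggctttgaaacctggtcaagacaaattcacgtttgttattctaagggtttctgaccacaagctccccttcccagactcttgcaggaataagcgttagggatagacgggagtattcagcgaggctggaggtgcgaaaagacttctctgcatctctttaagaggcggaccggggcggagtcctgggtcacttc
Slc38a2 promoter: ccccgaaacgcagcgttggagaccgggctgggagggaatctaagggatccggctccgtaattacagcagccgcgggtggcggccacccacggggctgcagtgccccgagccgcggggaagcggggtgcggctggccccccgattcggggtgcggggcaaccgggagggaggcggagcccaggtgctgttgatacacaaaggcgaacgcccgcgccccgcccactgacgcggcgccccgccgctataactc

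Levels are given as TMM-normalized CPM, that is counts scaled to a common library size. Library totals of the 35 libraries ran from 37029477 to 63042165 counts, and the 7 members other than Slc7a11 had at least 414 counts in every library. The targeted gene, Cbx5 or Cbx3, was lower in the KO without overlap in each of the 6 comparisons with WT, with log2 fold changes of -1.42 to -0.43, and passed an adjusted p of 0.05 only for Cbx5 in HP1a Tconv (0.0331). CD4 T cell markers summed to 6290 to 10500 CPM, while B cell markers reached at most 63.6 CPM and CD8 T or NK cell markers at most 30.4 CPM. Erythroid markers (hemoglobin genes and Alas2) summed to 3300 to 6030 CPM in 4 libraries, replicate 1 of the 4 HP1g graft groups, and to at most 767 CPM in the other 31. Where leaving out these 4 libraries changed whether a member passed, the value without them is given beside the result. For the pathway genes described further below no such value was taken. In the HP1a line, replicate 1 of the naive cells had the most Slc3a2, Slc38a2 and Slc7a1 of its group in WT and in KO. In HP1g WT naive cells replicate 2 stood apart, with a chi-square of 296 and 277 per gene against its partners, which differed from each other by 11.9. It held 200 CPM of Cbx3 against 106 and 116 CPM, and the least Slc7a5, Slc1a5, Slc38a1 and Slc38a2 of its group.

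Per kilobase of exon, transcripts of Slc1a5 were the most abundant of the 8, with a median of 82.1 CPM per kb over the 35 libraries. Slc3a2 followed with 49.3, Slc38a2 with 29.6, Slc38a1 with 11.5, Slc7a5 with 7.88, Slc7a6 with 7.01 and Slc7a1 with 3.57 CPM per kb, while Slc7a11 stood at 0.00439. By this median the glutamine carriers and the common heavy chain gave more transcript than the light chains and the cationic carrier. In naive cells, though, Slc7a5 averaged more than Slc38a1, at 13.5, 11.2, 9.24 and 11 against 9.6, 9.02, 7.95 and 9.16 CPM per kb. In CPM it averaged less there, at 51.9, 43.1, 35.5 and 42.4 against 182, 170, 150 and 173. These are the means of HP1a WT, HP1a KO, HP1g WT and HP1g KO in that order. The length taken was that of all annotated exons of a gene, 3841 bases for Slc7a5 and 18909 for Slc38a1, and not that of the transcripts expressed. Between libraries Slc7a6 varied least, from 36.7 to 56.7 CPM, which is a 1.55-fold range. Slc7a5 varied most among the expressed members, from 10.8 to 71.1 CPM (6.61-fold), followed by Slc3a2 from 105 to 536 CPM (5.09-fold). Ordered by mean level, most neighbouring groups overlapped: of the 11 neighbouring pairs of groups, 9 overlapped for Slc1a5, 10 for Slc7a5, Slc3a2, Slc38a1 and Slc38a2, and all 11 for Slc7a1, Slc7a6 and Slc7a11. Because the libraries were made from bulk cells, fewer cells holding a transcript and less transcript per cell cannot be told apart.

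**Figure D1:**
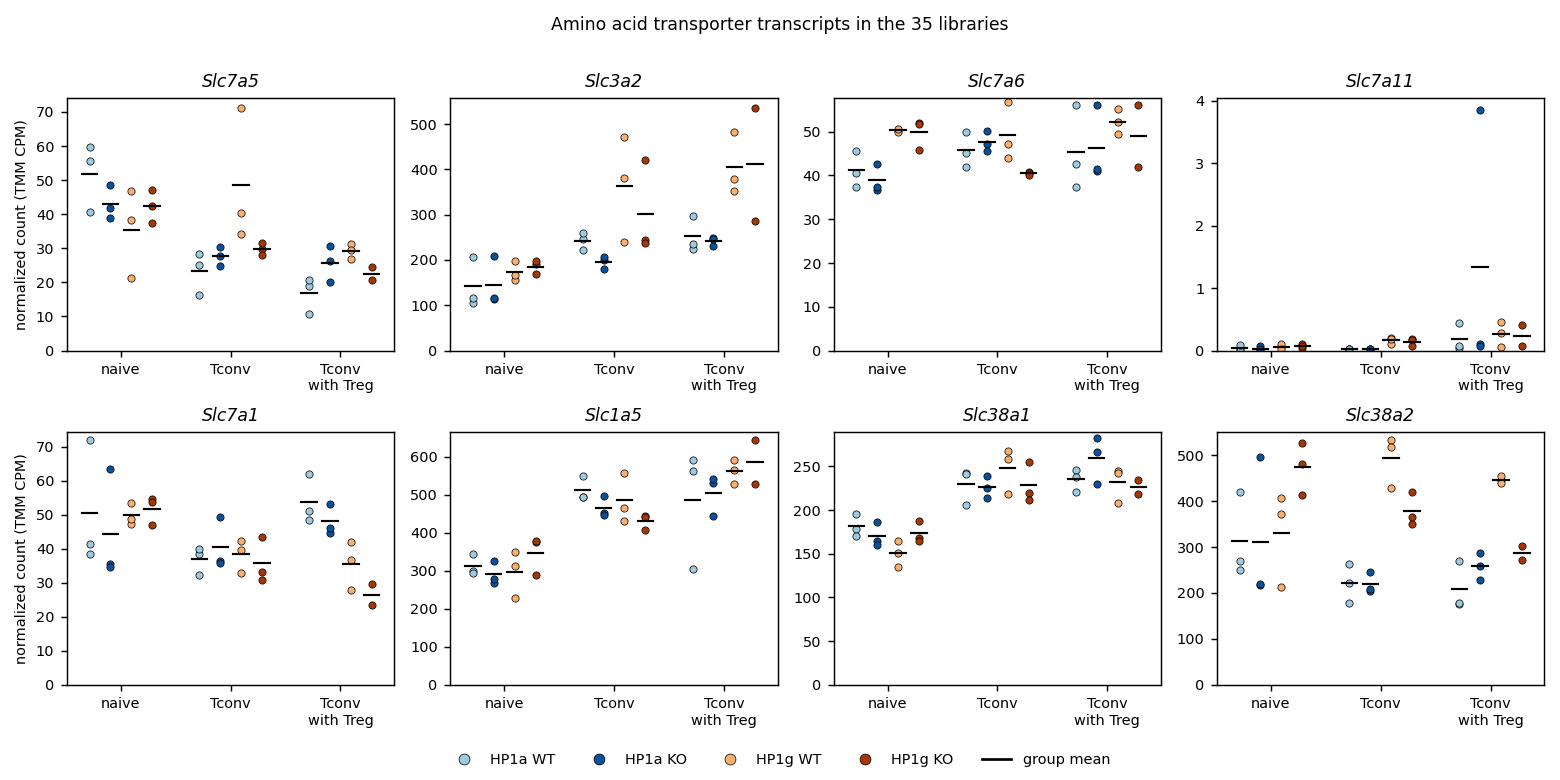
Normalized counts (TMM CPM, linear axes from 0) of the 8 amino acid transporter genes, 1 point per library and 1 short line per group mean, by condition and coloured by line and genotype. Slc1a5 and Slc38a1 sit higher in graft Tconv than in naive cells, Slc7a5 sits lower except in HP1g WT, and Slc7a11 is near 0 apart from 1 library at 3.85 CPM.

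The comparison of Tconv with naive cells asks how the transporters differ between naive cells and Vβ6+ cells recovered from the graft hosts. The glutamine carrier gene Slc38a1 rose in both genotypes of both lines. Slc1a5, a further glutamine carrier, rose in all but HP1g KO (adjusted p = 0.0848 there), and the heavy chain gene Slc3a2 in all but HP1a KO (adjusted p = 0.201 there), with rises of at most 1.07 on the log2 scale. Slc7a5 (LAT1) fell in all but HP1g WT, by 1.15 on the log2 scale in HP1a WT. Of the 7 members tested, 4 passed in HP1a WT (adjusted p under 0.05, from the quasi-likelihood test of edgeR and adjusted by Benjamini-Hochberg over all genes), 4 in HP1a KO, 3 in HP1g WT and 5 in HP1g KO. By that threshold 45.7%, 40.6%, 31.4% and 41.1% of all genes tested passed. Only 1 member was called with the additional threshold of a 2-fold change in HP1a WT and 1 in HP1g WT, and none in either KO, where 23.1%, 23.5%, 19.7% and 23.1% of all genes were called in HP1a WT, HP1g WT, HP1a KO and HP1g KO. The naive libraries were purified with beads, without a Vβ6 sort, and carry a label series of their own. The paper states that T cells moved into lymphopenic mice also proliferate because of the lymphopenia. The response to alloantigen, that to the irradiated host and how the cells were obtained therefore cannot be told apart.

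The LAT1 gene Slc7a5 stood at 40.7, 59.6 and 55.5 CPM in the 3 HP1a WT naive libraries and at 25, 28.3 and 16.3 CPM in HP1a WT Tconv. The groups did not overlap, and the log2 fold change was -1.15 (SE 0.22, edgeR adjusted p = 0.00332). It kept an adjusted p under 0.05 without any 1 of the 6 libraries, at -1.32 to -0.95, although without HP1a_WT_Tconv replicate 3 the change of -0.95 is less than 2-fold. In HP1a KO the naive libraries held 48.6, 41.7 and 39 CPM and the Tconv 24.9, 27.6 and 30.3 CPM, which is -0.63 (adjusted p = 0.00624) and again free of overlap. In HP1g KO the values were 37.5, 47.2 and 42.4 CPM in naive cells and 29.9, 27.9 and 31.6 CPM in Tconv, or -0.48 (adjusted p = 0.00971). With all libraries of the line in 1 fit the adjusted p was 0.0524 in HP1a KO and 0.165 in HP1g KO, at -0.65 and -0.5. HP1g WT was different in sign: the naive libraries held 38.2, 21.4 and 46.9 CPM and the Tconv 71.1, 40.4 and 34.2 CPM. The groups overlapped, and the difference of 0.45 did not pass (adjusted p = 0.366). The highest of these values, 71.1 CPM, belongs to the HP1g WT Tconv library with an erythroid marker sum of 4920 CPM, and without it the difference was 0.07 (adjusted p = 0.9). The lowest naive value, 21.4 CPM, is that of replicate 2, and without that library the difference was 0.2 (adjusted p = 0.68).

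The heavy chain gene Slc3a2 rose in 3 of the 4 backgrounds, while its LAT1 partner fell in HP1a WT and HP1g KO of these and did not pass in HP1g WT. In HP1a WT it stood at 207, 105 and 117 CPM in naive cells and at 247, 259 and 222 CPM in Tconv, a difference of 0.77 (adjusted p = 0.0376). In HP1g WT it stood at 155, 198 and 167 CPM in naive cells and at 471, 381 and 239 CPM in Tconv, which gave 1.07 (SE 0.257, adjusted p = 0.0155), and in HP1g KO at 168, 190 and 198 CPM against 421, 245 and 238 CPM, or 0.72 (adjusted p = 0.0326). The groups were apart in these 3 backgrounds. In HP1a KO the naive libraries at 208, 113 and 115 CPM overlapped the Tconv at 199, 181 and 207 CPM, and the difference of 0.45 did not pass (adjusted p = 0.201). Replicate 1 of the HP1a naive cells had the most Slc3a2 of its group in WT and in KO, and without that library the difference was 1.14 in WT (adjusted p = 3.56e-05) and 0.8 in KO (adjusted p = 0.000375). In HP1a WT the adjusted p was above 0.05 without any 1 of the other 5 libraries, at 0.0639 to 0.111. The 4 highest Slc3a2 values of the whole series, 471, 421, 482 and 536 CPM, fell in the 4 libraries with erythroid marker sums of 3300 to 6030 CPM. Without the erythroid-high library the difference was 0.85 in HP1g WT (adjusted p = 0.0488) and 0.4 in HP1g KO (adjusted p = 0.00537). In HP1g WT the adjusted p lay between 0.0544 and 0.0566 without Tconv replicate 2, naive replicate 1 or naive replicate 3. In HP1g KO it lay between 0.0807 and 0.119 without any 1 of the 3 naive libraries. Snhg1, with which Slc3a2 shares exon bases, averaged 62.3 CPM (39.4 to 105) in HP1a WT naive cells and 36.2 CPM (32.5 to 38.2) in Tconv. In HP1g WT it averaged 70.8 CPM (62.1 to 79.8) in naive cells and 39.6 CPM (30.6 to 51.3) in Tconv. The part of Snhg1 reads in the Slc3a2 values was not tested.

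Among the glutamine carriers, Slc1a5 (ASCT2) rose from 343, 298 and 294 CPM to 495, 493 and 548 CPM in HP1a WT, by 0.72 on the log2 scale (adjusted p = 0.000545). In HP1a KO it rose from 325, 267 and 279 to 497, 451 and 447 CPM, by 0.69 (adjusted p = 0.0014), and in both genotypes it still passed without any 1 of the 6 libraries. In HP1g WT it went from 348, 228 and 312 to 557, 465 and 432 CPM (0.71, adjusted p = 0.032). There passing depended on 4 of the 6 libraries, namely Tconv replicate 1, 2 and 3 and naive replicate 3, without which the adjusted p was 0.113, 0.0907, 0.0556 and 0.0773. In HP1g KO, at 376, 288 and 378 CPM in naive cells and 445, 408 and 440 CPM in Tconv, the difference of 0.33 did not pass (adjusted p = 0.0848). The groups were nevertheless apart in all 4 backgrounds, as they were for 57.8%, 54.9%, 52% and 53.6% of all genes in HP1a WT, HP1a KO, HP1g WT and HP1g KO.

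Slc38a1 (SNAT1) was the only member that passed in all 4 backgrounds. It rose by 0.35 in HP1a WT (182 ± 13.3 to 230 ± 20.9 CPM, SD, n = 3 libraries each, edgeR adjusted p = 0.0211), by 0.42 in HP1a KO (170 ± 13.9 to 226 ± 12.4, adjusted p = 0.00693), by 0.72 in HP1g WT (150 ± 14.9 to 248 ± 26.9, adjusted p = 0.0113) and by 0.42 in HP1g KO (173 ± 12.6 to 228 ± 23.2, adjusted p = 0.0189). The 12 naive libraries held 135 to 196 CPM and the 12 Tconv libraries 206 to 268 CPM, so that they did not overlap even across lines. With 1 library left out the adjusted p stayed under 0.05 in 6 of 6 cases in HP1a KO, 5 in HP1g WT (all but Tconv replicate 2, adjusted p = 0.0591), 4 in HP1g KO (all but naive replicates 1 and 2, adjusted p = 0.0885 and 0.0772) and 2 in HP1a WT (those without Tconv replicate 3 or naive replicate 1, the other 4 giving 0.0659 to 0.0843).

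The related carrier gene Slc38a2 (SNAT2) did not pass in any background. In the HP1a line replicate 1 of the naive cells held 421 CPM in WT and 497 CPM in KO, against 217 to 270 CPM in the other naive libraries and 178 to 264 CPM in Tconv. The differences of -0.5 in HP1a WT and -0.49 in HP1a KO did not pass (adjusted p = 0.106 and 0.301). In the HP1g line the differences were 0.58 in WT (373, 212 and 406 against 533, 519 and 428 CPM, adjusted p = 0.124) and -0.3 in KO (414, 482 and 527 against 421, 351 and 365 CPM, adjusted p = 0.0953). Without naive replicate 2 the HP1g WT difference was 0.35 (adjusted p = 0.0524). Without the erythroid-high Tconv library the HP1g KO difference was -0.39 and passed (adjusted p = 0.0145).

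The cationic carrier Slc7a1 (CAT1) and the exchanger light chain Slc7a6 (y+LAT2) passed in 1 and 2 of the 4 backgrounds. Slc7a1 fell by 0.51 on the log2 scale in HP1g KO, from 54.5, 47 and 53.6 to 43.5, 30.7 and 33.2 CPM (adjusted p = 0.0249). It no longer passed without Tconv replicate 2 or 3 or naive replicate 1 or 3, at adjusted p of 0.0744 to 0.0816. Its difference was -0.38 in HP1g WT, -0.45 in HP1a WT and -0.12 in HP1a KO, none of which passed (adjusted p = 0.105, 0.156 and 0.753), although the first passed without naive replicate 2 (-0.41, adjusted p = 0.0414). Slc7a6 rose by 0.31 in HP1a KO, from 38.9 ± 3.26 to 47.6 ± 2.32 CPM (adjusted p = 0.0374), and fell by 0.28 in HP1g KO, from 49.9 ± 3.4 to 40.5 ± 0.401 CPM (adjusted p = 0.0463). With 1 library left out, the rise still passed in 1 of the 6 cases and the fall in 2, so both turned on single libraries. No difference between the lines was tested in KO cells.

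**Figure D2:**
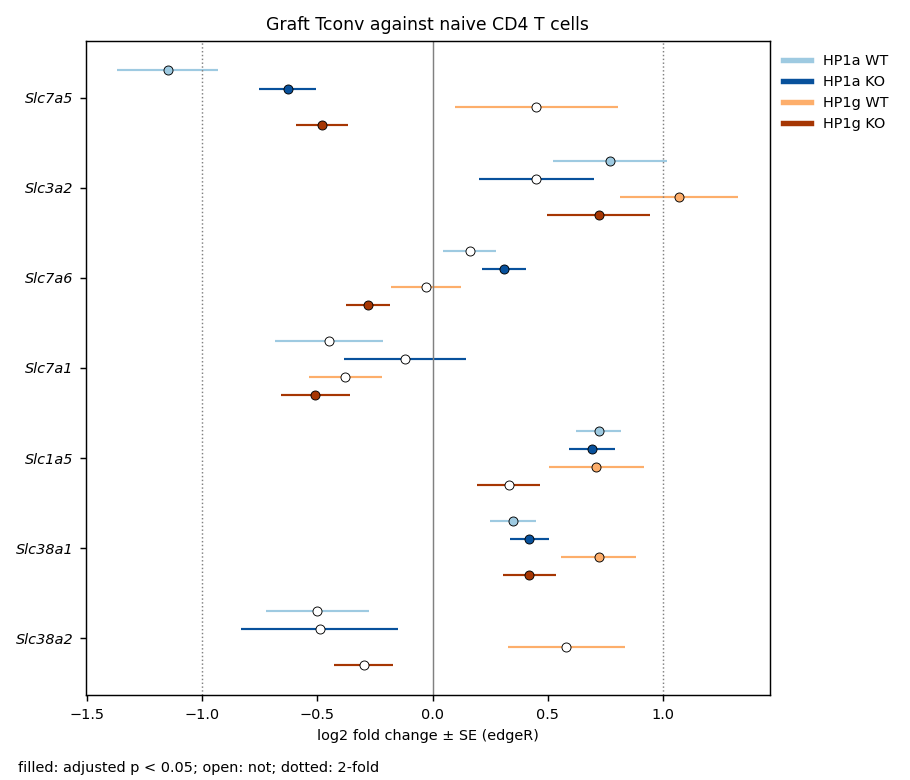
Log2 fold changes (horizontal axis, points, with the edgeR SE as bars) of graft Tconv against naive CD4+ T cells for 7 amino acid transporter genes, by line and genotype. Filled points have an adjusted p under 0.05 and dotted lines mark a 2-fold change. Slc1a5, Slc38a1 and Slc3a2 lie to the right of 0, and Slc7a5 lies to the left except in HP1g WT at 0.45.

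Whether the change between naive cells and Tconv itself differed was asked in 3 further tests, added after the values were seen. Between WT cells of the HP1a and HP1g lines the change of Slc7a5 differed by -1.6 on the log2 scale (SE 0.462, edgeR unadjusted p = 0.00438, adjusted p = 0.204). That of Slc38a2 differed by -1.07 (edgeR adjusted p = 0.206). Between KO and WT of the HP1g line the change differed by -0.91 for Slc7a5 and by -0.86 for Slc38a2 (adjusted p = 0.63 and 0.526). None of the 7 members tested passed in any of these tests, in which 0.0117%, 0.0235% and 0.00587% of all genes were called in the same order. DESeq2 called Slc7a5 in the first of them (-1.6, adjusted p = 0.0375).

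As heavy and light chains work as pairs, the ratio of Slc3a2 to Slc7a5 was taken per kilobase of exon in each library. In naive cells it averaged 2.46 ± 1.51 (SD, n = 3) in HP1a WT, 2.72 ± 0.702 in HP1a KO, 4.62 ± 2.58 in HP1g WT and 3.62 ± 0.273 in HP1g KO. In Tconv it averaged 8.96 ± 1.96, 5.87 ± 0.613, 6.33 ± 1.26 and 8.33 ± 2.86 in the same order. In Tconv with Treg it averaged 14 ± 7.62, 8.02 ± 1.95 and 11.5 ± 2.79, and in HP1g KO 15.5 ± 8.28 over 2 libraries. The naive and Tconv libraries did not overlap in HP1a WT, HP1a KO and HP1g KO, whereas in HP1g WT a naive library at 7.59 lay among the Tconv at 5.46 to 7.77. That naive library is replicate 2, and its partners stood at 2.94 and 3.33. The erythroid-high libraries had the highest ratio of their group in HP1g KO Tconv (11.6 against 7.22 and 6.2), HP1g WT Tconv with Treg (14.8 against 10 and 9.82) and HP1g KO Tconv with Treg (21.3 against 9.63), so that without them the last group is 1 library at 9.63. In HP1g WT Tconv the erythroid-high library had the lowest, at 5.46. In every library there was more heavy chain than LAT1 transcript, the lowest ratio being 1.46. The heavy chain also serves Slc7a6, which varied least of the 8 genes.

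**Figure D3:**
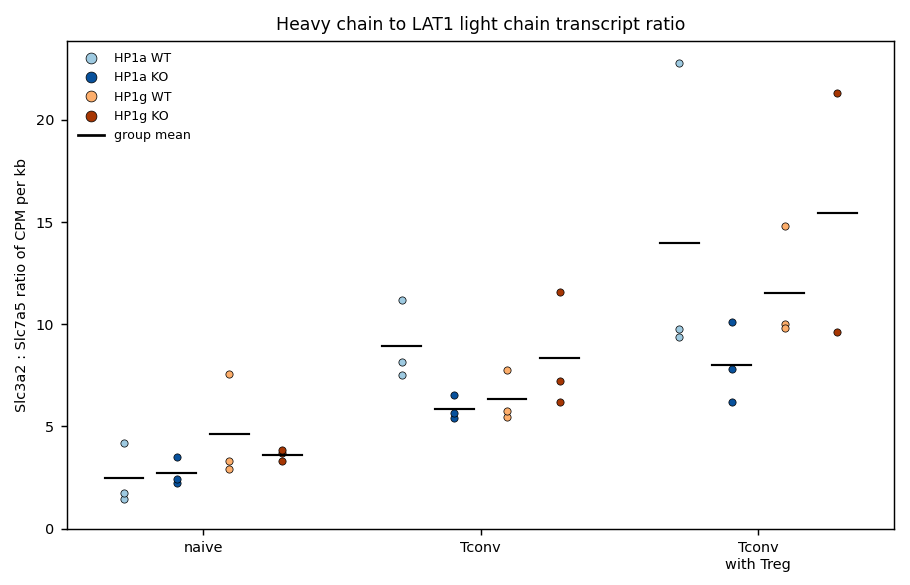
Ratio of Slc3a2 (CD98 heavy chain) to Slc7a5 (LAT1 light chain) transcript, each in CPM per kb of exon, 1 point per library and 1 short line per group mean, by condition and coloured by line and genotype. All but 1 of the 12 naive libraries lie at 4.19 or less, the other at 7.59, and the graft libraries lie at 5.41 or more, with the erythroid-high libraries the highest of HP1g KO Tconv (11.6), HP1g WT Tconv with Treg (14.8) and HP1g KO Tconv with Treg (21.3).

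KO cells were compared with WT cells of the same line and condition to ask whether loss of HP1α or HP1γ affects these genes. No member passed an adjusted p of 0.05 in any of the 6 comparisons. At an unadjusted p under 0.05 there were 0, 1 and 0 members in naive cells, Tconv and Tconv with Treg of the HP1a line, and 0, 2 and 1 in those of the HP1g line, where 1.87%, 8.53% and 12.1% of all genes in the HP1a line and 5.78%, 8.42% and 11.8% in the HP1g line had such a p. Groups did not overlap for 0, 1 and 0 members in the HP1a line and for 1, 3 and 2 in the HP1g line, and for 6.19%, 15.1%, 21.5%, 17.4%, 13.9% and 29.2% of all genes in the same order. DESeq2 with both thresholds called no member either. With the replicate number as a block, which pairs the libraries of the HP1a naive comparison, 12 genes were called there in place of 0. In HP1g Tconv and HP1g Tconv with Treg the block gave 74 and 30 genes in place of 7 and 0. In HP1a Tconv, HP1a Tconv with Treg and HP1g naive cells it gave 30, 5 and 0 in place of 16, 20 and 1. No member was among the genes called with the block. Over all genes 0%, 0.103% and 0.123% were called in the HP1a line and 0.00669%, 0.0437% and 0% in the HP1g line. The median of the tested members lay between -0.25 and 0.22 on the log2 scale, where the median of all genes lay between -0.01 and 0.02.

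The member closest to the threshold was Slc38a2 (SNAT2) in HP1g Tconv with Treg. It stood at 447, 440 and 455 CPM in WT and at 272 and 303 CPM in KO, a difference of -0.63 (SE 0.126, unadjusted p = 0.00219, edgeR adjusted p = 0.194). DESeq2 gave -0.64 with an adjusted p of 0.00033, which is under a 2-fold change. Without the erythroid-high libraries, which leaves 1 KO library whose spread is assumed to be that of the WT libraries, the difference was -0.55 (adjusted p = 0.344). With the left-out library put back it was 0.71 (adjusted p = 0.886), since that library alone held 1430 CPM. In HP1g Tconv Slc38a2 also lay apart, at 421, 351 and 365 CPM in KO and 533, 519 and 428 CPM in WT (-0.36, adjusted p = 0.482), whereas in HP1g naive cells KO lay above WT (0.53, adjusted p = 0.63). Without WT naive replicate 2 the last was 0.26 (adjusted p = 0.582).

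Slc7a5 (LAT1) was lower in HP1g KO Tconv than in WT by -0.69 without overlap (29.9, 27.9 and 31.6 against 71.1, 40.4 and 34.2 CPM, adjusted p = 0.54). Without the erythroid-high libraries of both groups the difference was -0.33 (adjusted p = 0.296), so its size turned on 1 WT library. In HP1g Tconv with Treg it stood at 20.7 and 24.5 CPM in KO and at 26.9, 31.2 and 29.5 CPM in WT (-0.36, adjusted p = 0.43). In the HP1a line the sign was the opposite: KO against WT was 0.25 in Tconv (adjusted p = 0.73) and 0.6 in Tconv with Treg (26.3, 30.6 and 20.1 against 19, 20.6 and 10.8 CPM, adjusted p = 0.457), and the groups overlapped. Slc3a2 was lower in HP1a KO Tconv, at 199, 181 and 207 CPM against 247, 259 and 222 CPM in WT (-0.31, SE 0.0807, unadjusted p = 0.00512, adjusted p = 0.549). Slc7a6 was lower without overlap in HP1g KO Tconv (-0.27, adjusted p = 0.602). For Slc7a1, Slc1a5 and Slc38a1 the WT and KO groups overlapped in all 6 comparisons, with differences between -0.41 and 0.25.

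The comparison of Tconv with Treg against Tconv asks what the presence of Treg changes. No member passed an adjusted p of 0.05 in edgeR in any of the 4 backgrounds, where 5.96%, 0.44%, 0.0126% and 0% of all genes were called with both thresholds in HP1a WT, HP1a KO, HP1g WT and HP1g KO. With the replicate number as a block, which pairs the HP1g WT libraries, 0 genes in place of 2 were called in HP1g WT. One member in each background had an unadjusted p under 0.05, as did 22.5%, 15.8%, 6.89% and 7.62% of all genes. In HP1a WT this was Slc7a1 (CAT1), at 38.4, 39.8 and 32.4 CPM in Tconv and 48.5, 51.1 and 61.9 CPM in Tconv with Treg (0.57, SE 0.168, adjusted p = 0.0933). DESeq2 gave it an adjusted p of 0.0358. In HP1a KO it was Slc3a2, at 199, 181 and 207 against 249, 230 and 246 CPM (0.32, adjusted p = 0.12, by DESeq2 0.0258). In HP1g WT it was Slc7a5, at 71.1, 40.4 and 34.2 against 26.9, 31.2 and 29.5 CPM (-0.73, adjusted p = 0.694), which was -0.3 without the erythroid-high libraries (adjusted p = 0.902). In HP1g KO it was Slc1a5, at 445, 408 and 440 against 529 and 644 CPM (0.46, adjusted p = 0.604). Without the erythroid-high libraries 1 library with Treg is left, at 644 CPM, and the last was 0.63. Its adjusted p of 0.04 takes the spread from the Tconv libraries alone. Groups did not overlap for 1, 1, 1 and 5 of the members tested and for 34.4%, 22.6%, 13.4% and 24.3% of all genes in HP1a WT, HP1a KO, HP1g WT and HP1g KO. The 5 in HP1g KO, where 3 libraries stand against 2, were Slc1a5 and Slc7a6 (0.46 and 0.3), which lay higher with Treg, and Slc7a5, Slc7a1 and Slc38a2 (-0.38, -0.42 and -0.38), which lay lower, with adjusted p of 0.604 to 0.744.

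In HP1a WT Tconv with Treg, replicate 3 differed from its partners in several transporters: it held 304 CPM of Slc1a5 against 561 and 591, 10.8 CPM of Slc7a5 against 19 and 20.6, and 269 CPM of Slc38a2 against 176 and 179. Treg markers summed to 1080 to 1220 CPM in this group and to 583 to 875 CPM in HP1a WT Tconv, and myeloid markers to 75.2 to 90.5 and 7.52 to 12.5 CPM. Their part in the transporter values was not tested. Of the 5 genes of glucose, lactate and iron uptake, 2 passed as lower with Treg in HP1a WT, 1 in HP1a KO and none in HP1g WT and HP1g KO. By adjusted p alone 1178 of 15627, 122 of 16133, 2 of 15903 and 0 of 16991 genes passed in the same order. The glucose transporter Slc2a3 fell by 2.89 on the log2 scale in HP1a WT (229 to 30.4 CPM, adjusted p = 0.000309) and by 1.22 in HP1a KO (179 to 76.4 CPM, adjusted p = 0.00755). Slc2a1, a further glucose transporter, named with its values known, fell by 0.84 in HP1a WT (88.2 to 48.7 CPM, adjusted p = 0.0113). Of the 6 regulators tested Myc alone passed, as lower by 1.53 in HP1a WT (126 to 43.2 CPM, adjusted p = 0.0211) and by 0.63 in HP1a KO (125 to 80.6 CPM, adjusted p = 0.0497). The difference of the Slc2a3 change between HP1a KO and WT was 1.68 (adjusted p = 0.0051). From lists described below, Bcat1, Hmox1 and Sesn3 were called as higher with Treg in HP1a WT, by 2.14, 1.11 and 1.08 (edgeR adjusted p = 0.00626, 0.045 and 0.0229).

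**Figure D4:**
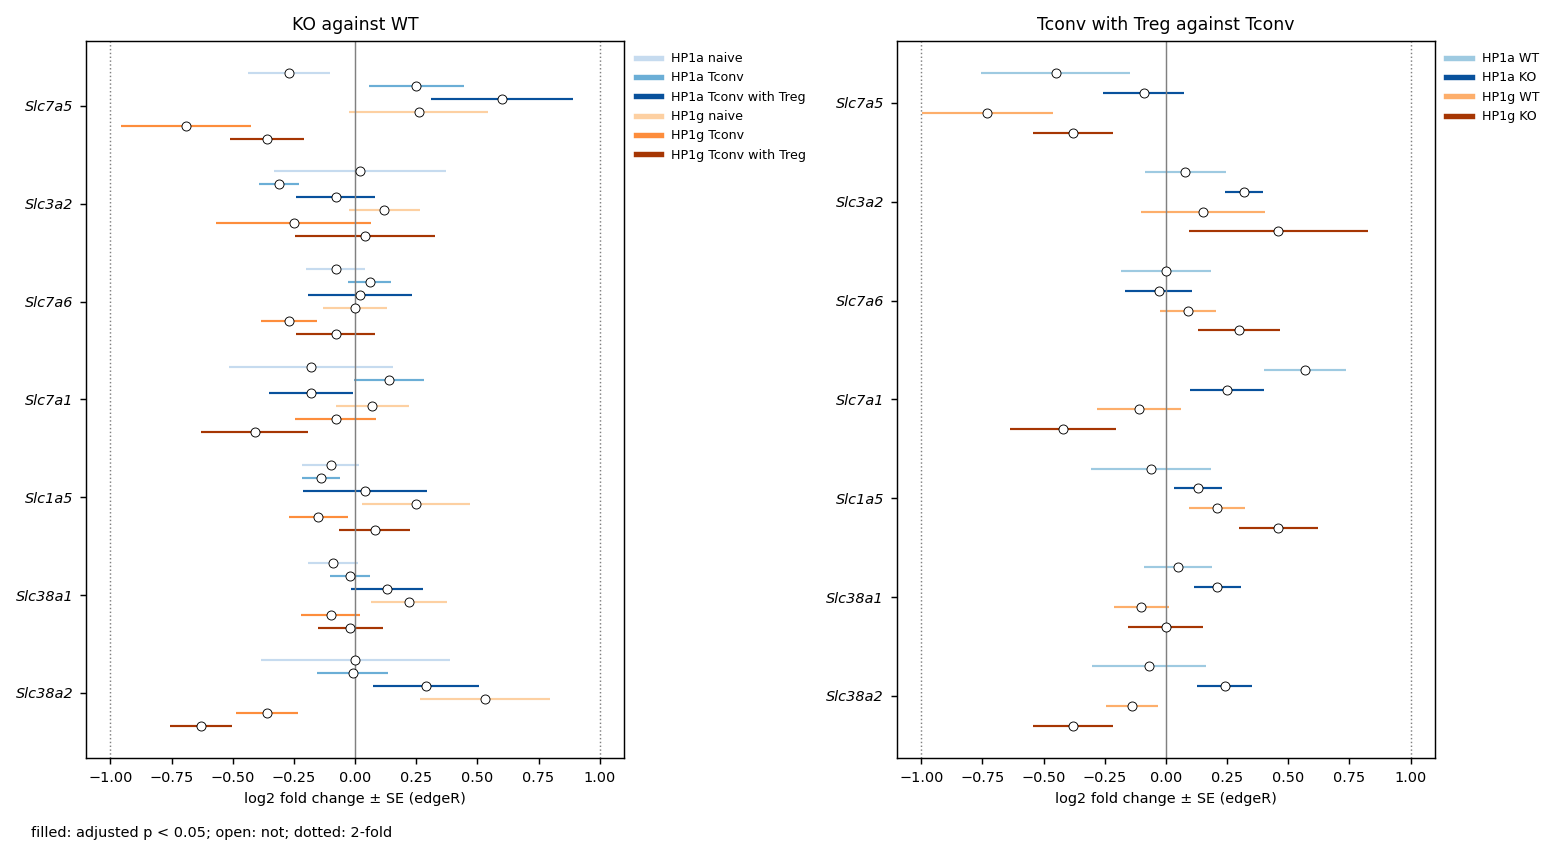
Log2 fold changes (horizontal axes, points, with the edgeR SE as bars) of 7 amino acid transporter genes, on the left for KO against WT by line and condition and on the right for Tconv with Treg against Tconv by line and genotype. All points are open, which marks an adjusted p of 0.05 or more, and all lie within the dotted lines of a 2-fold change.

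The tests of a difference between such changes gave no passing member either. For the interaction of genotype and Treg the lowest adjusted p of a member was 0.717 in the HP1a line and 1 in the HP1g line, where 0.139% and 0% of all genes were called. The KO effect in Tconv with Treg differed between the lines by 0.92 for Slc38a2 (adjusted p = 0.108) and by 0.97 for Slc7a5 (adjusted p = 0.183), with 2.72% of all genes called. For Slc38a2 DESeq2 gave 0.94 (adjusted p = 0.0272), and without HP1a_WT_TconvTreg replicate 3 edgeR gave 1.19 (adjusted p = 0.00881). The Treg effect in WT cells differed between the lines by 0.66 for Slc7a1 (adjusted p = 0.212), with 1.56% of all genes called. The lines are separate sets of libraries, so a line and its set cannot be told apart.

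Slc7a11 (xCT) was at or near 0. It had 3 counts or fewer in 20 of the 35 libraries and was too low to be tested in most comparisons. Its group means lay between 0.0251 and 0.268 CPM in 11 groups. The exception was HP1a KO Tconv with Treg, at 0.108, 0.0746 and 3.85 CPM, where replicate 3 alone held 216 counts. Over the 12 group means its 3 most alike genes were the neutrophil genes S100a9, S100a8 and Ltf (Pearson r = 0.832, 0.83 and 0.825). The highest of these Slc7a11 means was set by replicate 3. That library also had the highest myeloid marker sum of its group, at 554 CPM against 429 and 194 CPM. The HP1a WT Tconv with Treg libraries had 75.2 to 90.5 CPM. Its partner with 429 CPM held 0.108 CPM of Slc7a11. In HP1g WT Tconv replicate 1 the sum was 331 CPM and Slc7a11 stood at 0.201 CPM. The part of myeloid cells in the Slc7a11 counts was not tested. In the comparisons where it could be tested Slc7a11 did not pass (for example 0.74, SE 0.949, adjusted p = 0.901 for Treg in HP1g KO).

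Genes of the surrounding pathway were described from lists, by counts that passed an adjusted p of 0.05 in Tconv against naive cells. Over all genes 45.7%, 40.6%, 31.4% and 41.1% passed in HP1a WT, HP1a KO, HP1g WT and HP1g KO. The medians of all genes were -0.04, -0.01, -0.03 and 0.02. Of 28 other amino acid transporters, 18 or 19 could be tested. In HP1a WT 4 were higher and 6 lower in Tconv, in HP1a KO 3 and 3, in HP1g WT 3 and 2, and in HP1g KO 3 and 2, with medians of -0.11, 0.18, 0.24 and 0.03. None of those called with a 2-fold change averaged 5 CPM over the libraries compared. An example is Slc43a1 (LAT3), which was picked with its values known. It went from 0.0921 to 3.18 CPM in HP1a WT (adjusted p = 0.00166) and from 0.0753 to 6.95 CPM in HP1g WT (adjusted p = 0.0033).

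Among 21 amino acid response genes 18 were tested, of which 5 to 8 were higher and 1 to 3 lower in Tconv. Atf4 itself had differences of 0.01, -0.03, -0.18 and -0.34 in HP1a WT, HP1a KO, HP1g WT and HP1g KO, none of which passed. Trib3, a feedback inhibitor induced by ATF4, fell in all 4 backgrounds, with log2 fold changes of -1.21, -1.38, -1.47 and -2 (adjusted p at most 0.00876). Asns, the asparagine synthetase gene and a classical target of ATF4, was also picked with its values known. It rose from 0.111 to 8.43 CPM in HP1a WT and from 0.2 to 7.08 CPM in HP1g WT (adjusted p = 4.63e-06 and 0.000121). Atf3, a stress factor, rose by 5.15 in HP1a KO, 6.96 in HP1g WT and 3.86 in HP1g KO, while its difference of 5.3 in HP1a WT did not pass (adjusted p = 0.0501). Eif4ebp1, a translation inhibitor, rose by 1.36 in HP1a WT and 1.39 in HP1a KO. The list thus moved in both directions, with medians of 0.11 to 0.37.

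Of 28 genes of amino acid sensing by mTORC1, which all were tested, 1 to 7 were higher and 5 to 11 lower. The leucine sensor gene family member Sesn1 fell from 161 to 29.4 CPM in HP1a WT (-2.45, adjusted p = 7.54e-05), and its changes were -2.58, -1.73 and -2.2 in HP1a KO, HP1g WT and HP1g KO. Castor2, a relative of the arginine sensor, fell with changes of -2.2, -1.81, -1.5 and -1.03 in the order HP1a WT, HP1a KO, HP1g WT and HP1g KO. Castor1, the arginine sensor, differed by 0.9, 1.06, 0.7 and 0.56 in that order and passed as higher in all but HP1g WT (adjusted p = 0.05). Of 20 aminoacyl-tRNA synthetases 2 to 5 were higher and 2 to 7 lower, and their medians lay between -0.08 and 0.05. Vars, which charges valine, rose by 1.21 in HP1g WT (adjusted p = 0.0237). Of the 16 genes of glutamine, arginine, methionine and branched-chain metabolism 14 were tested, with 4 or 5 higher and 2 to 4 lower. Odc1, which starts polyamine synthesis, rose by 1.75 in HP1g WT (139 to 468 CPM, adjusted p = 0.00571), and its differences of 1.01, 0.62 and 1.28 in HP1a WT, HP1a KO and HP1g KO did not pass. Srm, a further polyamine enzyme, fell in HP1g WT (-1.29) and HP1g KO (-1.14). Ahcy, an enzyme of the methionine cycle, rose by 1.13 in HP1a WT.

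Of 12 genes of the NRF2 and glutathione list 11 were tested, with 4 higher and 1 lower in each background. The lower one was Nfe2l2, which encodes NRF2, at -1.04, -0.89, -1.16 and -0.97 in HP1a WT, HP1a KO, HP1g WT and HP1g KO. Srxn1, a further gene of this list, rose from 0 to 10.1 CPM in HP1a WT (11.98, edgeR adjusted p = 7.95e-06). Hmox1, a heme-degrading enzyme that macrophages and erythroid cells also express, rose by 2.29, 4.49, 3.48 and 3.36 in HP1a WT, HP1a KO, HP1g WT and HP1g KO. In HP1a KO Tconv it averaged 37.7 ± 46.5 CPM (SD, n = 3 libraries), so these libraries differed widely. Myeloid markers were also higher in the last 3 Tconv groups, at 15.3 to 182, 29.2 to 331 and 102 to 145 CPM. The naive cells of these groups had 5.52 to 13.2 CPM. Erythroid marker sums reached 767, 4920 and 3300 CPM in the same 3 Tconv groups, and 178, 50.1 and 78.1 CPM in their naive cells. The part of either in the Hmox1 changes was not tested. Among 5 genes of glucose, lactate and iron uptake, Slc2a3 rose by 2.03, 1.68, 2.33 and 1.77 and the lactate exporter Slc16a3 by 2.36, 2.16, 2.63 and 2.76 in the order HP1a WT, HP1a KO, HP1g WT and HP1g KO (adjusted p at most 0.000825). The fitted changes of these genes were larger than those of the 7 amino acid transporters tested. Among 7 regulators Hif1a rose by 1.3, 0.74, 1.71 and 1.72 in that order. Myc did not rise: its differences were -0.31, -0.26, -0.67 and -1.07, and it passed as lower in HP1g WT and HP1g KO (adjusted p = 0.0266 and 0.000514). Of 12 proliferation genes 10 were higher and 0 lower in each background, with medians of 4.47 to 6.03.

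**Figure D5:**
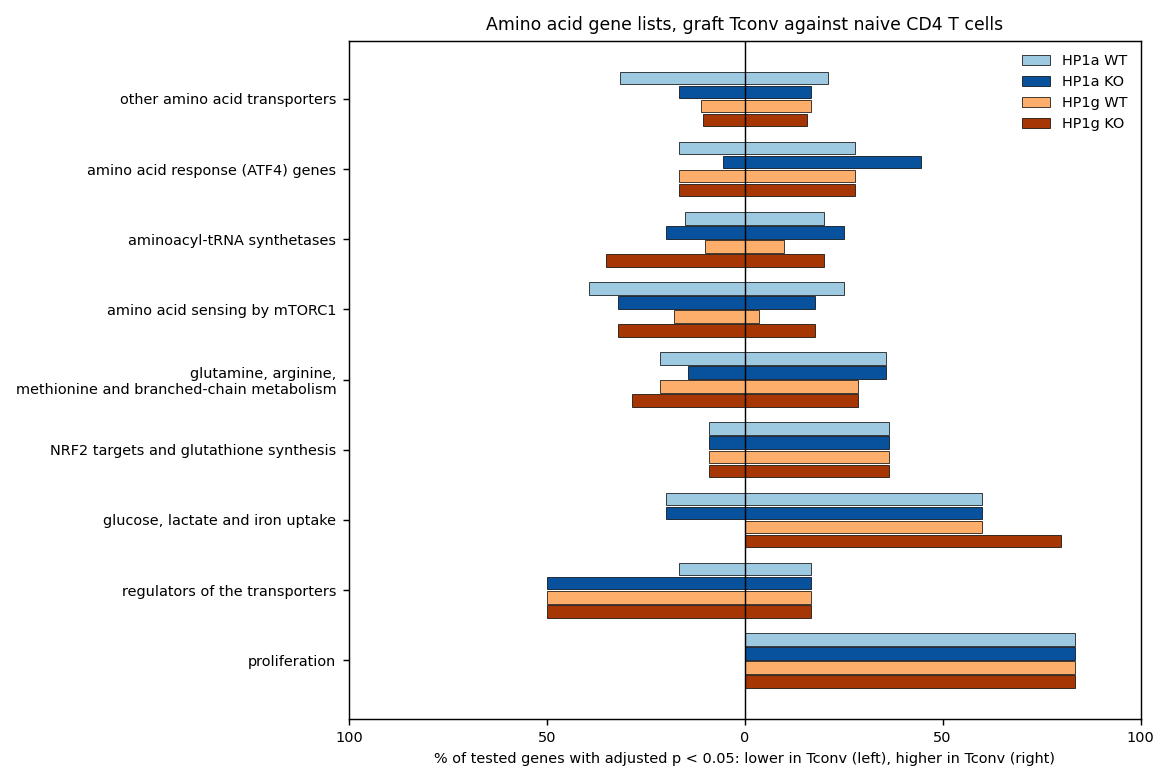
Share of the tested genes of each list with an adjusted p under 0.05 that were lower (to the left) or higher (to the right) in graft Tconv than in naive CD4+ T cells, in percent, by line and genotype. The amino acid lists move in both directions, while 10 of the 12 proliferation genes are higher and 0 lower in each background.

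Over the 12 group means of log2(CPM + 1), where lines and conditions share library sets and the points are not independent, the genes most like each member were sought among those with a mean of at least 5 CPM. They were Zfp871, Polr1a and Akap11 for Slc7a5 (Pearson r = 0.963, 0.951 and 0.948), Gla, Odc1 and Fam83d for Slc3a2 (0.977, 0.972 and 0.964), and Rgs2, Siah2 and Zrsr2 for Slc7a6 (0.867, 0.853 and 0.848). Those of Slc7a1 were Ino80d, mt-Co3 and Pum2 (0.967, 0.944 and 0.941). Slc1a5 was most like Rassf1, Traf1 and Tmem191c (0.97, 0.966 and 0.966), Slc38a1 most like Prrc2b, Heg1 and Pias3 (0.97, 0.966 and 0.962), and Slc38a2 most like Fbxw2, Erdr1 and Tatdn2 (0.946, 0.942 and 0.94). The members themselves were left out of this ranking. Between members the pattern of Slc1a5 was most like that of Slc38a1 (0.9) and Slc3a2 (0.87), while Slc7a5 ran against Slc1a5 (-0.64) and Slc3a2 (-0.45).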

How the data were processed

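RNA-seq libraries (SMART-Seq v4 PLUS, unstranded) of 36 samples in 12 groups were analysed. Per the study's methods, the authors trimmed reads with Trim Galore, aligned them with STAR to GRCm39 and quantified genes with Salmon through nf-core/rnaseq. The deposited values are the authors' estimated counts per gene, which were rounded to whole numbers here. One library, excluded by the authors for abnormal GC content, exonic share and 5′ to 3′ bias, was left out. Library totals ran from 37029477 to 63042165 counts (median 46844629), and no pair of replicates held identical values.

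Comparisons were fitted on the groups concerned with edgeR 4.0.16 (quasi-likelihood test, TMM, filterByExpr, R 4.3.3) over all genes with Benjamini-Hochberg adjustment. Calls required both an adjusted p under 0.05 and an absolute log2 fold change above 1. The scripts were tested on simulated data. The 8 members and the lists were chosen with earlier results of these data known. Most of the list genes named were among the up to 4 called genes of a list with the largest change and a mean of at least 5 CPM. Not every gene that met this rule is given. Of the 21 comparisons, 3 were added after the values were seen, as was leaving out libraries with an erythroid marker sum above 1000 CPM. A gene chosen for the erythroid list was left out of that sum and is not reported here. Alternatives were DESeq2 1.42.0, RLE size factors, no filter, no fold threshold, all libraries in 1 fit, a replicate block, the left-out library included and each replicate left out. Same-numbered libraries were taken as paired where their deviations correlated above 0.1 in 3 of 3 pairs. The comparisons meeting this rule were HP1a naive KO against WT (0.496 to 0.828) and Treg in HP1g WT (0.153 to 0.457). The KO comparison in HP1g Tconv with Treg has only 2 pairs, so the rule could not be met there. Its correlations, 0.223 and 0.453, also lay above 0.1.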

Additional observations from a re-analysis of the deposited data

Results flagged for a closer look

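The library left out of all comparisons, replicate 3 of HP1g KO Tconv with Treg, held more transcript of 5 of the 8 transporters than any of the 35 libraries used, when all 36 were scaled together. It held 264 CPM of Slc7a5, 1230 CPM of Slc7a1, 2700 CPM of Slc38a1, 1430 CPM of Slc38a2 and 991 CPM of Slc7a6. The highest values in the other 35 libraries on that scale were 69.1, 69.9, 275, 518 and 55.1 CPM in the same order. Slc3a2 and Slc1a5, at 67.9 and 157 CPM, were below all 35, and Slc7a11 had no count. The authors excluded this library for its abnormal GC content, exonic share and bias along transcripts, and the part of these in the transporter values was not tested.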

How the results depend on the processing

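Groups hold 3 libraries, or 2, and naive and graft cells differ in how they were obtained. The next counts cover only the 34 member results with an unadjusted p under 0.05 in the main edgeR fit. A gain outside this set is not counted. An example is Slc3a2 for Tconv against naive cells in HP1a KO. Its edgeR adjusted p was 0.201, and 0.000375 without naive replicate 1. RLE size factors moved none of the 34 member results across the threshold. DESeq2 moved 6 of them (5 gained, 1 lost), no filter on low counts lost 4 (Slc3a2 in HP1a WT and HP1g KO, Slc7a6 in HP1a KO and HP1g KO), and fitting all libraries of a line together lost 5 (Slc7a5 and Slc7a6 in HP1a KO and HP1g KO, Slc3a2 in HP1g KO), all for Tconv against naive cells. Without a fold threshold 4, 4, 3 and 5 members passed for Tconv against naive cells in HP1a WT, HP1a KO, HP1g WT and HP1g KO. Leaving out 1 library gave 0 to 2 members called in HP1a WT (0 without Tconv replicate 3, 2 without naive replicate 1), 0 to 1 in HP1g WT (0 without Tconv replicate 1 or 2 or naive replicate 1 or 3) and 0 to 1 for the KO effect in Tconv with Treg compared across lines (1 without HP1a WT Tconv with Treg replicate 3). Without the erythroid-high libraries, an alternative added after the data were seen, 0 members were called in HP1g WT. DESeq2 called 1 member for the change from naive cells to Tconv compared across lines in WT. With the left-out library included, mean levels in HP1g KO Tconv with Treg were 103 CPM for Slc7a5, 426 for Slc7a1, 434 for Slc1a5, 1050 for Slc38a1, 665 for Slc38a2 and 362 for Slc7a6. Slc38a2 in KO against WT of HP1g Tconv with Treg then turned to 0.71, and the contrast of KO effects across lines turned to -1.31 for Slc7a5 and -0.37 for Slc38a2. That library's own values set these shifts. The cause of the others was not tested.

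With the replicate number as a block, Slc3a2 (0.67, adjusted p = 0.0693) and Slc7a6 (-0.27, adjusted p = 0.0754) no longer passed for Tconv against naive cells in HP1g KO, where the numbers do not pair the libraries. The block moved no other of the 34 member results across the threshold. Counts over all genes moved more: for KO against WT, DESeq2 called 15, 201 and 713 genes in HP1a naive cells, Tconv and Tconv with Treg and 38, 264 and 605 in those of HP1g, where edgeR called 0, 16, 20, 1, 7 and 0. For Treg, DESeq2 called 1755, 431, 57 and 264 genes in HP1a WT, HP1a KO, HP1g WT and HP1g KO, and edgeR 932, 71, 2 and 0.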
